A study of Mus musculus with 16 samples.

Results

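The genes described here encode 10 receptors on the surface of T cells: Cd28, Icos, Ctla4, Pdcd1, Btla, Tigit, Cd226, Lag3, Klrg1 and Cd5. They were chosen by name, as the rows of both deposited tables whose Ensembl identifier maps to those symbols. All 10 were found in each table, among 47643 gene identifiers.

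A T cell is activated when its antigen receptor binds antigen and costimulatory receptors bind ligands on the antigen-presenting cell. CD28 and its relative ICOS give costimulation. CTLA-4 binds the same ligands as CD28, CD80 and CD86, with higher affinity and restrains activation, and PD-1 (Pdcd1) and BTLA, also members of the wider family, inhibit signalling through phosphatases. TIGIT inhibits and CD226 activates on binding the shared ligands CD155 and nectin-2, LAG-3 inhibits after binding MHC class II, KLRG1 inhibits after binding cadherins, and CD5 dampens signalling from the antigen receptor. Regulatory T cells (Treg), which hold other T cells in check, carry CTLA-4 at a high level all the time, and ICOS and KLRG1 are known as marks of their activated or effector forms.

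The libraries came from the spleens of 8 mice. In TRaGS mice (TRαGS in the series text), the thyroid hormone receptor alpha, encoded by Thra, has lost binding to DNA, and TRaWT mice were their wild-type littermates. Each of 4 TRaWT and 4 TRaGS mice gave 1 library of CD25- CD4+ T cells and 1 of CD25+ CD4+ Treg. The CD25- cells bear the label naive, and CD4 is their name here, and the 16 libraries form 4 groups of 4. CD4+ cells were enriched magnetically and then sorted by flow cytometry. The labels give neither age nor sex, no treatment, and no promoter or Cre, and the only marker named for splitting the subsets is CD25. The series set out to compare the genotypes within each subset.

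The libraries read the 3' ends of polyadenylated transcripts, and the values are normalised read counts. CD4 libraries held 2679119 to 5095278 reads and Treg libraries 2912038 to 4154027. The gene Gm42418, which overlaps ribosomal RNA, took 21.1% to 41.1% and 20.8% to 33.0% of them. The sorted subsets differed in their defining markers: Foxp3, Il2ra and Ikzf2 were higher in Treg in all 4 mice of each genotype, with no overlap. Likeness between libraries, taken as the median of each one's Spearman correlations inside its subset, was lower in CD4 (0.762 to 0.835) than in Treg (0.880 to 0.911), and lowest for CD4 TRaGS replicate 2. In normalised counts, that library held the highest Cd28, Cd226 and Cd5 and the lowest Icos of all CD4 libraries. CD4 TRaWT replicate 2, from a different mouse that shares only the number, was the lowest of its group for Icos, Cd226 and Cd5. CD4 values of these genes are therefore also given without replicate 2. The libraries left out were picked in part by the values of these same genes. The means without them are thus a description, and a smaller or reversed difference can follow from that choice. Thra itself had 133 ± 15.3 normalised counts in TRaWT Treg and 135 ± 52.9 in TRaGS Treg (SD, n = 4), which does not check the genotype, since its transcript is still made.

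In Treg, 2 of the 10 receptor genes rose in TRaGS, Icos and Klrg1, and none fell. Differences were tested on log2(value + 1) with limma and adjusted over all genes, and a gene was called at an adjusted p under 0.05. Over all 11051 genes tested in Treg, 0.959% were called, 0.733% higher in TRaGS and 0.226% lower. In CD4, 8 of the 10 had enough reads to be tested and none was called, against 0.0575% of the 10426 genes tested. In CD4 the genotypes overlapped for all 10, and 3.16% of all genes tested there did not overlap. At an unadjusted p under 0.05 stood Icos and Klrg1 in Treg and Cd28 in CD4, against 9.12% and 5.17% of all genes tested. The median genotype difference of the receptor genes was 0.03 (log2) in Treg and 0.43 in CD4, beside 0.01 and -0.01 over all genes tested. The Treg median includes Tigit and Lag3, which had enough reads to be tested only through their TRaGS libraries.

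**Figure D1:**
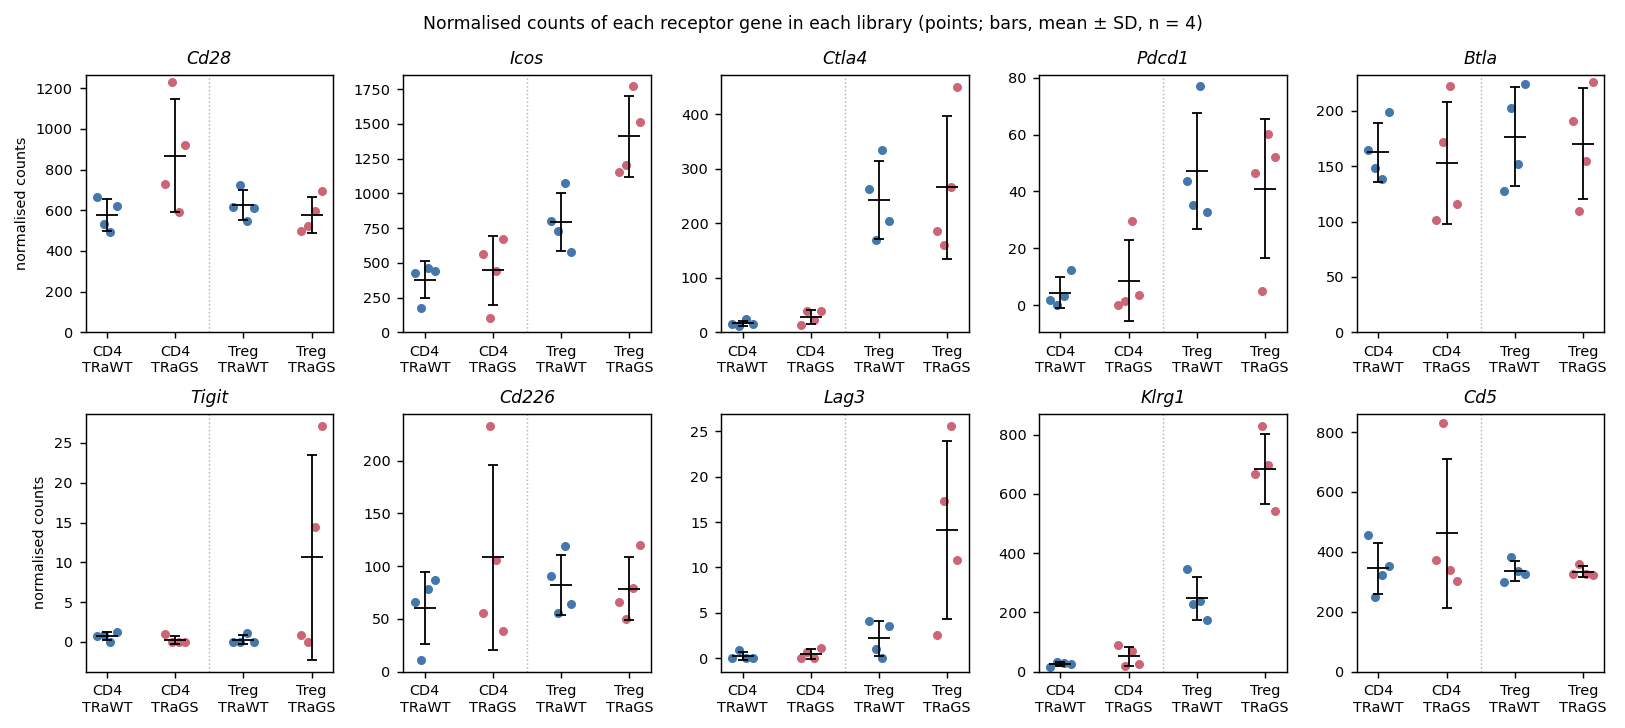
Normalised counts of the 10 receptor genes (vertical axes, each with its own scale) in the 4 groups; points are single libraries, and bars are the mean and SD of 4. Icos and Klrg1 in Treg are the panels in which every TRaGS library lies above every TRaWT library of the subset, with Icos at 1150.2 to 1771 against 576 to 1072.

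Cd28, Ctla4 and Icos lie next to each other on chromosome 1 in that order, all on the plus strand (GRCm38 with GENCODE release 21 annotation). Cd28 (ENSMUSG00000026012) spans chr1:60716800-60773359, Ctla4 (ENSMUSG00000026011) chr1:60887000-60915832 and Icos (ENSMUSG00000026009) chr1:60977927-61000320. The gaps between them are 113641 and 62095 bp. Within this cluster only Icos was called in Treg, and the values of each follow.

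Icos, the inducible costimulator, had 801, 726, 1072 and 576 normalised counts in the 4 TRaWT Treg libraries and 1150.2, 1204, 1771 and 1514 in the 4 TRaGS Treg libraries. Each TRaGS library exceeded each TRaWT library, as was so for Icos and Klrg1 among the receptor genes and for 2.84% of all genes tested in Treg (5.07% in either direction). The means were 794 ± 208 and 1409.7 ± 289 (SD, n = 4), a difference of 0.84 ± 0.16 (log2 ± SE; 1.79-fold, 95% interval 1.43 to 2.25; limma adjusted p = 0.00279), the 25th smallest p of all genes tested in Treg. The call was lost in 2 of 20 alternatives. Without the variance trend the adjusted p was 0.452 and no gene at all was called, and with only TRaGS replicates 1 and 2, whose animal numbers lie near those of the TRaWT mice, the difference was 0.60 (adjusted p = 0.286), while over all alternatives the adjusted p ranged from 7.76e-05 to 0.452. In bulk libraries such as these, more cells of a type and more RNA per cell cannot be told apart.

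In CD4, Icos had 430.3, 179, 459.5 and 441 normalised counts in TRaWT and 562, 105, 441 and 675 in TRaGS. The genotypes overlapped, and replicate 2 was the lowest in each. The difference was 0.04 ± 0.33 (log2 ± SE; 95% interval -0.61 to 0.70; limma adjusted p = 0.991), and its sign changed in 7 of 20 alternatives. Without TRaGS replicate 2 it was 0.64, and without TRaWT replicate 2 it was -0.28. Leaving replicate 2 out of both genotypes gave means of 444 ± 14.7 in TRaWT and 559 ± 117 in TRaGS (SD, n = 3).

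Cd28, the main costimulatory receptor of resting T cells, had 615, 725, 549 and 609 normalised counts in TRaWT Treg and 498, 523, 598 and 694 in TRaGS Treg. The ranges overlapped almost throughout. The difference was -0.12 ± 0.16 (log2 ± SE; 95% interval -0.45 to 0.22; limma adjusted p = 0.904), so a change of the size seen for Icos lies outside the interval. In CD4 the TRaWT libraries had 666, 534, 494 and 621 and the TRaGS libraries 730.3, 1230.2, 589 and 920.0. TRaGS values were mostly higher, with replicate 3 inside the TRaWT range. The difference of 0.54 ± 0.27 had an unadjusted p of 0.0443 and an adjusted p of 0.947 in limma. It was 0.35 without TRaGS replicate 2, and the means without replicate 2 of either genotype were 594 ± 89.0 and 747 ± 166 (SD, n = 3).

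Ctla4 had 264, 170.0, 335 and 204 normalised counts in TRaWT Treg and 187, 160.5, 267 and 451 in TRaGS Treg. The TRaGS libraries held both the lowest and the highest of the 8 values. The difference was 0.06 ± 0.25 (log2 ± SE; 95% interval -0.45 to 0.57; limma adjusted p = 0.974). In CD4, Ctla4 was low, at 15.3, 11.7, 24.0 and 14.6 in TRaWT and 12.7, 38.9, 22.6 and 40.1 in TRaGS. Replicates 2 and 4 of TRaGS were above every TRaWT library, and the difference of 0.68 ± 1.14 did not pass (limma adjusted p = 0.967).

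Because CTLA-4 and CD28 compete for the same ligands, their transcripts were also set against each other within each library, as the log2 ratio of (value + 1). The Ctla4 to Cd28 ratio in Treg was -1.40 ± 0.58 in TRaWT and -1.22 ± 0.46 in TRaGS (SD, n = 4; difference 0.17, exact two-sided permutation p = 0.657, adjusted over 4 ratio tests 0.686). In CD4 it was -5.09 ± 0.52 and -4.95 ± 0.56 (difference 0.14, exact permutation p = 0.686, adjusted 0.686). Neither ratio separated the genotypes. With 4 against 4 libraries the smallest p the test can give is 0.0286. The Icos to Cd28 ratio in Treg is given as a description because it follows from the Icos values above. It was -0.08 to 0.96 in TRaWT and 1.12 to 1.57 in TRaGS. Icos reads outnumbered Cd28 reads in all 4 TRaGS libraries. They also did so in TRaWT replicates 1, 2 and 3, though barely in replicate 2 (722 and 721 reads).

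**Figure D2:**
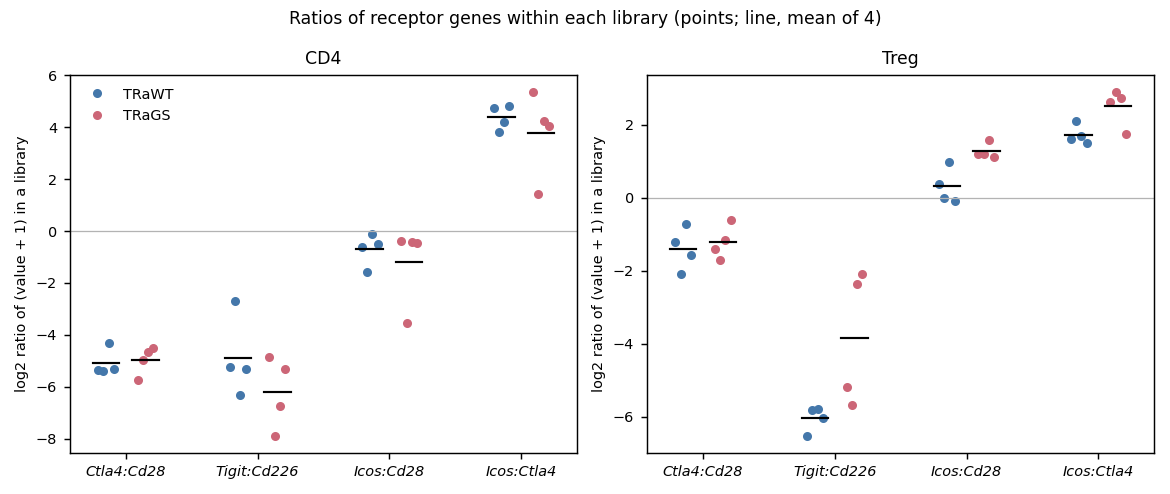
Log2 ratio of (value + 1) between pairs of receptor genes within each library (vertical axis) in CD4 and Treg; points are libraries, and lines are means of 4. The Ctla4 to Cd28 ratio overlaps between genotypes in both subsets, and in Treg the Icos to Cd28 ratio lies at 1.12 to 1.57 in TRaGS and at -0.08 to 0.96 in TRaWT.

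The protein-coding gene before Cd28, Raph1, which encodes lamellipodin, lies 149696 bp away and was also called higher in Treg, at 62.6 ± 27.5 and 152 ± 42.8 normalised counts (1.38 ± 0.36, limma adjusted p = 0.0447). Pard3b, 638504 bp after Icos, had 1.17 ± 1.65 and 13.9 ± 10.1 and was not called (adjusted p = 0.579). Along the chromosome, Raph1 and Icos were thus called, and Cd28 and Ctla4 between them were not.

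PD-1, encoded by Pdcd1 (ENSMUSG00000026285, chr1:94038305-94052553, minus strand), is induced by antigen receptor signalling. In Treg it had 43.6, 35.2, 77.0 and 32.9 normalised counts in TRaWT and 46.5, 5.06, 60.2 and 52.2 in TRaGS. All but TRaGS replicate 2, with 7 reads, lay in a common range. The difference was -0.55 ± 0.58 (log2 ± SE; 95% interval -1.72 to 0.63; limma adjusted p = 0.863) and turned to 0.24 without that library. In CD4, Pdcd1 had 1.61, 0, 3.27 and 12.2 normalised counts in TRaWT and 0, 1.41, 29.7 and 3.44 in TRaGS. No library had more than 10 reads except TRaGS replicate 3, with 29, and the difference of 0.29 ± 1.40 did not pass (limma adjusted p = 0.988).

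Thyroid hormone receptors bind DNA at half-sites with the letters AGGTCA, and the TRaGS receptor has lost DNA binding, so promoter windows were searched for those letters on both strands (TGACCT on the other). RefSeq windows on GRCm38.p6, 250 bases before to 50 after the annotated start, were found for Ctla4, Pdcd1, Btla, Tigit and Cd5. Of these 5, only the Pdcd1 window held a match, beginning at position 210 of 300; 16.3% of all 32851 windows of that length held one. The 250 bases before the Pdcd1 start, chr1:94052554-94052803 on the minus strand, are shown because they carry that match, in capitals.
Pdcd1: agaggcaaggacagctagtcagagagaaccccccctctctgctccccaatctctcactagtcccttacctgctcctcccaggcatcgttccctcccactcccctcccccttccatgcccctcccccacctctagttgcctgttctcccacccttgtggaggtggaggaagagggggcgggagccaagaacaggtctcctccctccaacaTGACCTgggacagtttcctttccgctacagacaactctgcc
A match describes the letters only. Pdcd1 was not called in either subset.

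BTLA, which binds HVEM (Tnfrsf14), is encoded by Btla (ENSMUSG00000052013, chr16:45224315-45257670, plus strand). In Treg it had 127, 202, 152 and 224 normalised counts in TRaWT and 191, 109, 155 and 226 in TRaGS. In CD4 it had 165, 148, 138 and 199 in TRaWT and 102, 172, 222 and 116 in TRaGS. The groups overlapped in both subsets. The differences were -0.06 ± 0.26 in Treg (log2 ± SE; 95% interval -0.59 to 0.46; limma adjusted p = 0.972) and -0.14 ± 0.47 in CD4 (adjusted p = 0.987).

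TIGIT is encoded by Tigit (ENSMUSG00000071552, chr16:43648867-43664146, minus strand) and is known as an inhibitory receptor of effector Treg. In TRaWT Treg it was at 0 in 3 libraries and at 1 read in replicate 3. In TRaGS Treg it had 1, 0, 13 and 25 reads, or 0.830, 0, 14.5 and 27.2 normalised counts. The reads thus came almost entirely from TRaGS replicates 3 and 4, and the genotypes overlapped. Summed over 4 libraries each, 39 reads stood against 1, a ratio of 35.2 after allowing for depth (95% counting interval 5.95 to 1424), which covers counting error and not the spread between mice. In limma the difference was 2.13 ± 1.39 (95% interval -0.67 to 4.94) with an adjusted p of 0.705. With only TRaGS replicates 1 and 2, whose animal numbers lie near those of the TRaWT mice, it was 0.16 (limma adjusted p = 0.996). The means of 4 libraries were 0.292 normalised counts in TRaWT and 10.6 in TRaGS, so Tigit was tested in Treg only through the group where it was high. In CD4, Tigit had 3 reads in all in TRaWT and 1 in TRaGS, below the filter of a mean of 5.

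CD226, the activating partner of TIGIT, is encoded by Cd226 (ENSMUSG00000034028, chr18:89176967-89272229, plus strand). In Treg it had 90.4, 55.3, 119 and 64.6 normalised counts in TRaWT and 65.6, 49.9, 79.2 and 119.6 in TRaGS. The difference was -0.08 ± 0.37 (log2 ± SE; 95% interval -0.81 to 0.66; limma adjusted p = 0.977). In CD4 it varied widely, with 66.2, 10.9, 78.4 and 86.6 in TRaWT and 55.7, 233, 106 and 39.0 in TRaGS. Replicate 2 was the lowest TRaWT and the highest TRaGS library. The difference of 0.84 ± 0.71 (limma adjusted p = 0.947) became 0.36 without TRaGS replicate 2 and 0.16 without TRaWT replicate 2. Without both the means were 77.1 ± 10.3 and 66.8 ± 34.7 (SD, n = 3), an order that leaving out those extremes favours.

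The Tigit to Cd226 ratio in Treg was -6.04 ± 0.34 in TRaWT and -3.83 ± 1.86 in TRaGS on the log2(value + 1) scale (SD, n = 4). In all TRaWT libraries and in TRaGS replicates 1 and 2, Tigit was at 0 or 1 read, so these ratios are set by Cd226 and the pseudocount of 1, and only TRaGS replicates 3 and 4 rest on more Tigit reads. The exact two-sided permutation p was 0.0286, the smallest that the test can give. Adjusted over the 4 ratio tests it was 0.114, and 0.229 with a pseudocount of 0.5 or 5 (0.114 to 0.686 over all alternatives). A single ratio at the smallest p cannot pass after that adjustment, so the test does not decide whether this ratio differed. In CD4 the ratio was -4.88 ± 1.54 and -6.19 ± 1.38 (exact permutation p = 0.257, adjusted 0.514).

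LAG-3 is encoded by Lag3 (ENSMUSG00000030124, chr6:124904361-124911705, minus strand), beside its relative Cd4. In Treg it had 4.11, 1.01, 0 and 3.52 normalised counts in TRaWT and 2.49, 17.4, 25.7 and 10.9 in TRaGS. Replicates 2, 3 and 4 of TRaGS were above every TRaWT library and replicate 1 was not. The summed reads were 9 and 60, a ratio of 6.01 after allowing for depth (95% counting interval 2.96 to 13.8). As for Tigit, this interval covers counting error and not the spread between mice. In limma the difference was 2.19 ± 1.10 (95% interval -0.02 to 4.40) with an unadjusted p of 0.0516 and an adjusted p of 0.552. The means were 2.16 normalised counts in TRaWT and 14.1 in TRaGS, so Lag3 too was tested only through the group where it was high. In CD4 it had 1 read in all in TRaWT and 2 in TRaGS.

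Klrg1 (ENSMUSG00000030114, chr6:122270596-122282882, minus strand) encodes a lectin-like inhibitory receptor of differentiated T cells and NK cells. In Treg it had 346, 228, 239 and 176 normalised counts in TRaWT and 669, 829.9, 697 and 543 in TRaGS. The lowest TRaGS library was well above the highest TRaWT library. The means were 247 ± 71.3 and 685 ± 118 (SD, n = 4), a difference of 1.49 ± 0.20 (log2 ± SE; 2.81-fold, 95% interval 2.14 to 3.69; limma adjusted p = 4.17e-06), the 4th smallest p in Treg. It was called in 19 of 20 alternatives, with adjusted p from 4.14e-09 to 0.172; the exception, at 0.172, was the fit without the variance trend.

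In CD4, Klrg1 had 14.5, 32.6, 28.3 and 26.8 normalised counts in TRaWT and 89.9, 20.5, 68.7 and 27.5 in TRaGS. Replicates 1 and 3 of TRaGS were above every TRaWT library. The difference of 0.80 ± 0.96 (log2 ± SE; 95% interval -1.08 to 2.68) did not pass (limma adjusted p = 0.947), and the interval holds the difference seen in Treg.

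Cd5 (ENSMUSG00000024669, chr19:10717116-10739002, minus strand) encodes a receptor whose level is known to follow the strength of antigen receptor signalling. In Treg it had 301, 383, 336 and 325 normalised counts in TRaWT and 326, 360.0, 326 and 323 in TRaGS. All 8 values lay close together. The difference was -0.01 ± 0.19 (log2 ± SE; 95% interval -0.39 to 0.37; limma adjusted p = 0.996). In CD4 it had 456, 249.8, 322 and 352 in TRaWT and 374, 830.0, 340.4 and 301 in TRaGS, where replicate 2 stood apart. The difference was 0.32 ± 0.33 (adjusted p = 0.947). Without TRaGS replicate 2 alone it was 0.00028, so the higher TRaGS mean rested on that library. The means without replicate 2 of either genotype, the lowest TRaWT and the highest TRaGS value, were 377 ± 70.2 and 339 ± 36.6 (SD, n = 3).

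**Figure D3:**
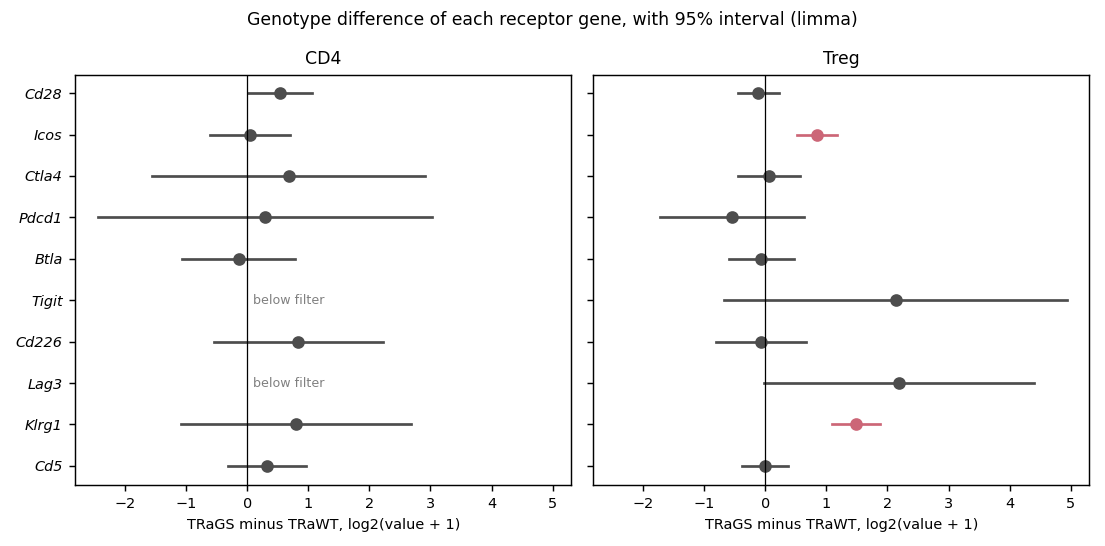
Difference TRaGS minus TRaWT on the log2(value + 1) scale (horizontal axis) for each receptor gene in CD4 and Treg; points are limma estimates, bars 95% intervals, and red marks an adjusted p under 0.05. Icos at 0.84 and Klrg1 at 1.49 in Treg are called. The widest intervals in Treg belong to Tigit and Lag3, which had few reads and were tested only through their TRaGS libraries.

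Marker genes of B cells and of naive T cells were also compared between the genotypes in Treg. All 10 B cell markers had a read in each genotype. Their summed normalised counts ranged from 907 to 1346 in TRaWT and from 1743 to 2118 in TRaGS, with means of 1119 and 1882. Ighm made up most of these sums, at 945 ± 134 and 1510.1 ± 268. Of the 9 markers tested, 8 had a positive and 1 a negative difference, and only Ighm was called, higher in TRaGS (limma adjusted p = 0.0115). The Ighm call was lost in 7 of 20 alternatives, among them leaving out TRaWT replicate 1 or 4 or TRaGS replicate 2 or 4. Of naive T cell markers, Ccr7 had 357 ± 34.5 normalised counts in TRaWT Treg and 243 ± 28.8 in TRaGS Treg without overlap (adjusted p = 0.281 in limma), Lef1 had 983 ± 75.7 and 804 ± 167 (adjusted p = 0.551), and Tcf7 had 659 ± 80.4 and 612 ± 90.8 (adjusted p = 0.910), all with a negative difference and none called. The part of these markers in the Icos and Klrg1 results was not tested. The 10 NK cell markers, relevant to Klrg1, summed to 94.6 to 154 in TRaWT Treg and 65.8 to 176 in TRaGS Treg. Of the 10, 9 had a read in TRaWT Treg and 7 in TRaGS Treg, and of the 5 tested, 3 had a positive difference and 0 were called. Klra8 was at 0 in every library of both subsets, and Ncr1 and Klra4 were at 0 in TRaGS Treg. In CD4 the NK cell markers summed to 122 to 180 in TRaWT and 201 to 288 in TRaGS, and their part in the Klrg1 values was not tested in either subset. Of the 4 Treg markers (Foxp3, Il2ra, Ikzf2 and Ctla4), 2 had a positive and 2 a negative difference in Treg, the lowest at -0.40. Only Ikzf2, a transcription factor gene, was called, higher in TRaGS Treg (0.54, limma adjusted p = 0.0140). That call was lost in 8 of 20 alternatives, among them leaving out TRaWT replicate 2, 3 or 4 or TRaGS replicate 3 or 4.

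**Figure D4:**
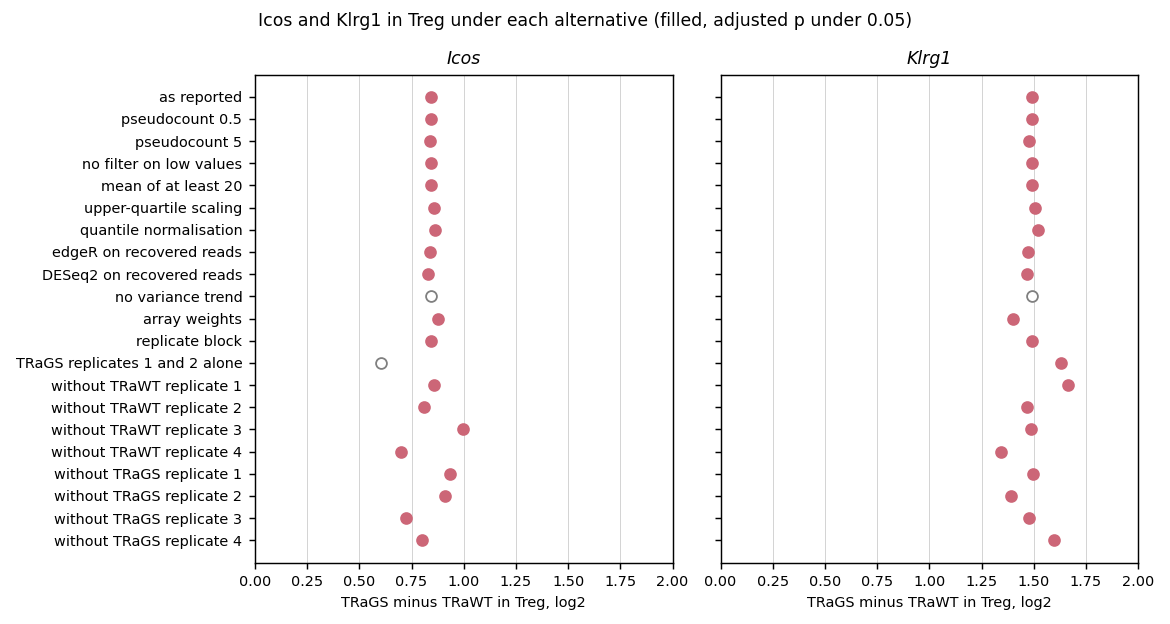
Genotype difference in Treg (horizontal axis, log2) of Icos and Klrg1 as reported and under each of 20 alternatives (rows); filled points have an adjusted p under 0.05. Icos ranges from 0.60 to 1.00 and Klrg1 from 1.34 to 1.67, and the open points are the fit without the variance trend and, for Icos, TRaGS replicates 1 and 2 alone.

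A further test, on the Treg minus CD4 log2 difference of each mouse, asked whether genotype acted differently in Treg and CD4. None of the 8 receptor genes that could be tested was called, and neither was any of the 9914 genes (0%), although 5.96% had an unadjusted p under 0.05. In 1 model of all libraries 0.0403% of genes were called. For Icos the genotype difference was 0.80 ± 0.76 larger in Treg (log2 ± SE; 95% interval -0.94 to 2.54; limma adjusted p = 0.918), and for Klrg1 it was 0.69 ± 0.75 larger (95% interval -1.01 to 2.40; adjusted p = 0.921). Without both libraries of TRaGS replicate 2 these values were 0.27 and 0.25. A response of Icos or Klrg1 that differs between Treg and CD4 was therefore not shown. For Cd28 the value was -0.66 ± 0.37 (adjusted p = 0.855).

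Levels in the subsets were set side by side as RPM (recovered reads scaled to a common total per library, Gm42418 left out of the total), and are a description with no test, since the tables were normalised separately. Ctla4, Klrg1, Icos and Pdcd1 were higher in Treg than in CD4 of the same mouse in all 8 mice. Ctla4 had 7.81 ± 2.67 in TRaWT CD4, 12.4 ± 5.81 in TRaGS CD4, 103 ± 29.5 in TRaWT Treg and 114 ± 54.2 in TRaGS Treg (RPM, SD, n = 4). Its step between subsets was alike among TRaWT mice, at 3.56 ± 0.15 log2, and 3.11 ± 0.62 among TRaGS mice.

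Klrg1 had 12.1 ± 3.73, 23.2 ± 15.4, 105 ± 28.4 and 294 ± 50.7 RPM in the same order of groups. No neighbours in that order overlapped except the CD4 groups. Icos had 179.6 ± 65.3, 205 ± 123, 337 ± 87.2 and 607 ± 133, and of its neighbours only the Treg groups did not overlap. Pdcd1 had 2.06 ± 2.65, 4.07 ± 6.72, 19.98 ± 8.57 and 17.7 ± 10.8, with overlap between all neighbours.

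Cd28, Btla, Cd226 and Cd5 did not separate the subsets, and every neighbouring group overlapped in range. Cd28 had 274 ± 35.0 RPM in TRaWT CD4, 370.3 ± 82.7 in TRaGS CD4, 266 ± 37.3 in TRaWT Treg and 248 ± 35.4 in TRaGS Treg. Btla had group means between 66.7 and 77.0, Cd226 between 28.9 and 43.9, and Cd5 between 143 and 191. Cd28 and Cd5 were lower in Treg than in CD4 in all 4 TRaGS mice and in 3 of the 4 TRaWT mice, where 1 was higher. With Gm42418 kept in the total, the mean Treg minus CD4 difference in TRaWT turned sign for Cd28 (-0.05 to 0.06, log2). It also did so for Btla (-0.06 to 0.05). With median-of-ratios scaling over the 16 libraries, Btla turned sign in TRaGS (0.16 to -0.02). Tigit and Lag3 had group means of at most 0.338 and 0.906 RPM outside TRaGS Treg, and 4.54 ± 5.43 and 6.07 ± 4.34 in it.

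**Figure D5:**
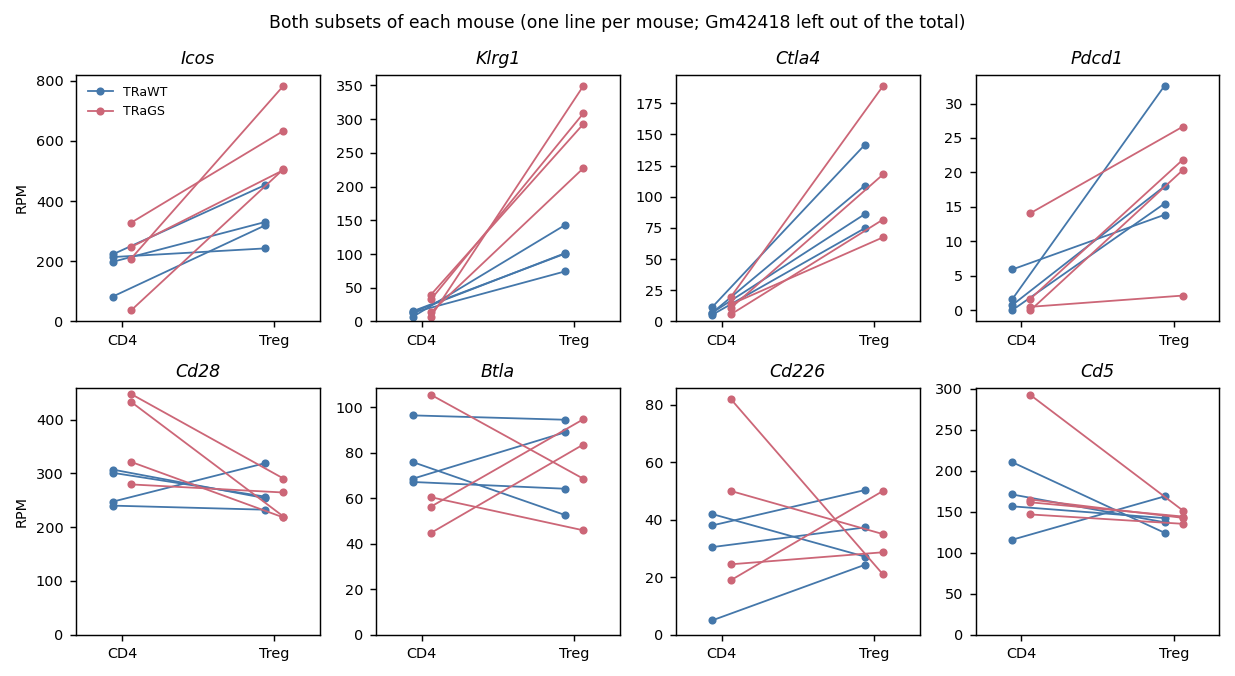
RPM (vertical axes) of 8 receptor genes in CD4 and Treg, with 1 line per mouse joining its libraries; colours mark genotype. The lines of Icos, Klrg1, Ctla4 and Pdcd1 rise in all 8 mice, and those of Cd28, Btla, Cd226 and Cd5 run in both directions.

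The genes around these receptors were taken as 6 lists of 124 genes. Among 22 transcription factor genes known to control co-inhibitory receptors, all tested in Treg, 2 rose in TRaGS and none fell, beside 0.959% of all genes called, and the list's median was 0.07. Prdm1, encoding Blimp-1, had 57.7 ± 22.2 normalised counts in TRaWT Treg and 172 ± 40.3 in TRaGS Treg (1.62 ± 0.33, limma adjusted p = 0.00571). Maf, encoding c-MAF, had 1012 ± 220.0 and 2032 ± 133 (1.03 ± 0.14, adjusted p = 1.30e-05). The Prdm1 call was lost without TRaGS replicate 4 (adjusted p = 0.0533) and with TRaGS replicates 1 and 2 alone, and both calls were lost without the variance trend.

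None of the other 5 lists held a called gene in Treg. Over all genes tested in Treg, 5577 differences were positive and 5474 negative. Whether the directions in any list departed from this was not tested. Of 14 ligands and counter-receptors, 7 were tested, 6 with a positive difference, and the median was 0.51. Lgals3, encoding galectin-3, which can bind LAG-3, had 6.59 ± 3.78 and 31.6 ± 8.27 normalised counts without overlap (adjusted p = 0.261 in limma), and Cd80, the ligand of CD28 and CTLA-4, had 8.25 ± 14.6 and 29.6 ± 25.2 (adjusted p = 0.393). B cells can carry CD80, and the summed B cell markers, mostly Ighm, did not overlap between the genotypes in the same libraries, as given above. The part of these markers in the Cd80 and Lgals3 values was not tested.

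Of 28 costimulatory signalling genes, 27 were tested in Treg, 20 with a negative difference, and the median was -0.04. Prkcq, encoding the kinase PKC-theta that acts below CD28, had 768 ± 101 and 527 ± 70.7 normalised counts without overlap (limma adjusted p = 0.119). Malt1, a paracaspase of the NF-kB branch, had 163 ± 27.0 and 245 ± 18.8 (adjusted p = 0.346). Of 22 genes of inhibitory phosphatases and adaptors, 14 were negative and the median was -0.10; Dgka, a diacylglycerol kinase, had 2923 ± 298 and 2170.4 ± 317 (adjusted p = 0.119), and Sla, an adaptor, had 385 ± 71.2 and 560.0 ± 97.4 (adjusted p = 0.232).

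Of 19 genes of receptor trafficking, shedding and mRNA decay, all were tested in Treg and the median was -0.00. Lrba, whose protein keeps CTLA-4 from degradation, had 264 ± 45.5 and 419 ± 81.8 normalised counts without overlap (limma adjusted p = 0.124). Rab11a, of recycling endosomes, had 61.0 ± 31.3 and 98.4 ± 31.3 (adjusted p = 0.526). Of 19 other co-signalling receptors, 15 were tested with a median of -0.02; Cd200r1, the receptor for CD200, had 72.6 ± 33.7 and 134 ± 63.6 (adjusted p = 0.396), and Cd160, a receptor for HVEM, had 55.2 ± 12.4 and 25.9 ± 7.39 without overlap (adjusted p = 0.501).

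In CD4 no gene of the 6 lists was called, beside 0.0575% of all genes. Vsir, encoding the inhibitory receptor VISTA, had 546 ± 106 normalised counts in TRaWT and 965 ± 155 in TRaGS without overlap (0.83 ± 0.27, unadjusted p = 0.0018, limma adjusted p = 0.611). Slamf6 had 367 ± 91.4 and 628 ± 245. Pik3cd, encoding the p110-delta kinase subunit, had 1031 ± 133 and 1625 ± 367. Pdk1, which encodes a pyruvate dehydrogenase kinase and is a different gene from Pdpk1, had 434 ± 244 and 262 ± 114. Sit1, an adaptor of the antigen receptor, had 165 ± 83.1 and 61.5 ± 28.4 without overlap. The transcription factor genes Id2 and Tcf7 had 842 ± 90.1 and 512 ± 228, and 1576 ± 354 and 2417 ± 932. Low genes named by the rule were Pdcd1lg2 at 3.35 ± 3.87 and 27.8 ± 33.3, Cd86 at 12.8 ± 14.9 and 2.85 ± 0.820, Ap2m1 at 45.3 ± 38.0 and 81.0 ± 22.4, and March1 at 17.7 ± 8.94 and 7.10 ± 10.4. Except for Vsir, the adjusted p-values of these genes were 0.788 or above.

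The genes whose Treg pattern was most like that of the called receptors were named by Pearson's r of log2(value + 1) over the 8 Treg libraries, which share the genotype groups, so r is a description. For Icos these were Casp4 (r = 0.960), Kif3a (0.941) and Rnf125 (0.940). Casp4, an inflammatory caspase, and Rnf125, a ubiquitin ligase, were called higher in TRaGS (1.40, limma adjusted p = 0.0164, and 0.88, adjusted p = 0.0104), and Kif3a, a kinesin motor, was not (0.35, adjusted p = 0.907). For Klrg1 they were Tnfrsf18 (r = 0.972), Ttc39c (0.970) and Il1rl1 (0.969). Il1rl1, encoding the IL-33 receptor ST2, was called higher (2.44, adjusted p = 9.14e-08), as was Ttc39c (2.50, adjusted p = 0.0104), and Tnfrsf18, encoding GITR, was not (0.56, adjusted p = 0.0774).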

How the data were processed

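Values came from 16 3' mRNA libraries of 8 mice, 8 libraries per subset. The authors deposited 1 table of normalised counts per subset, a signal unit in which each library's reads were divided by its own factor, with separate scaling of each table. The build is GRCm38, per the submitters' processing notes; the sources used here name no aligner or counter. Values were whole multiples of 1 step in each library (100% within a tolerance of 0.001), which gave back the reads. The kit protocol names no molecular identifiers, so intervals on reads cover counting error only.

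Symbols were matched for 47224 of 47643 identifiers, and coordinates are from GENCODE release 21. Within a subset, limma 3.58.1 (R 4.3.3) tested log2(value + 1) of genes averaging 5 normalised counts or more, using a variance trend and Benjamini-Hochberg adjustment over all of them at 0.05. That scale understates changes of low genes. In CD4 the prior degrees of freedom were infinite, so SEs and p-values follow the trend and not the gene's own spread; in Treg they were 36.8. The subsets of a mouse were paired by the animal number in the titles. The scripts were tested on simulated data. The receptor genes, lists and tests were chosen with earlier results of these data known. The rule named all 10 receptor genes, up to 6 called genes of a list or the 2 of smallest p where none was called, the 3 genes most like each called receptor, and neighbouring genes. Some genes that the rule names are left out of the text. Genes overlapping on the annotation are Icos with Gm37039 and Ctla4 with Rpl18-ps1, so shared reads there are uncertain.

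Alternatives were pseudocounts of 0.5 and 5, no filter, a mean of at least 20, upper-quartile and quantile scaling, count models of the recovered reads in edgeR 4.0.16 and in DESeq2 1.42.0, no variance trend, array weights, the replicate block, TRaGS replicates 1 and 2 alone, leaving out each library, and 1 model of all libraries for the difference between subsets (statmod 1.5.0). For RPM the alternatives were all recovered reads as the total and median-of-ratios scaling over the 16 libraries. Figures were drawn with matplotlib 3.10.9.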

Additional observations from a re-analysis of the deposited data

Results flagged for a closer look

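Of the 40 groups of 4 libraries formed by the 10 receptor genes, 7 held a library whose gap to its nearest neighbour, as a share of the group's range, exceeded Dixon's 95% critical value for 4 libraries, and chance flags about 5% of groups. In CD4, Icos was low in TRaWT replicate 2 (179 normalised counts against 430.3 to 459.5 in the others), Cd5 was high in TRaGS replicate 2 (830.0 against 301 to 374), and Pdcd1 was high in TRaGS replicate 3 (29.7 against 0 to 3.44). In Treg, Cd5 was highest in TRaGS replicate 2 (360.0 against 323 to 326), a gap that is wide only because the other 3 lie so close. The remaining 3 are single reads in a group otherwise at 0: Tigit in CD4 TRaGS replicate 1 (0.978 normalised counts), Tigit in Treg TRaWT replicate 3 (1.17) and Lag3 in CD4 TRaWT replicate 2 (0.835).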

How the results depend on the processing

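The calls of Icos and Klrg1 in Treg kept their direction in all 20 alternatives each. The number of receptor genes called in Treg was 2 as reported, 0 without the variance trend, 1 with TRaGS replicates 1 and 2 alone, and 2 whichever library was left out; in CD4 and for the difference between subsets it was 0 in every alternative. Over all genes, Treg calls went from 106 to 62 with no filter, 0 without the variance trend and 34 with TRaGS replicates 1 and 2 alone, and ranged from 54 (without TRaGS replicate 3) to 108 with 1 library left out (56 without TRaGS replicate 4). CD4 calls went from 6 to 1 with no filter, 3 in edgeR, 10 in DESeq2 and 0 without the variance trend, and from 1 to 7 with 1 library left out. The difference between subsets had 0 calls as reported, 4 in 1 model of all libraries and 0 to 1 with 1 mouse left out. The causes were not tested. Differences that were not called and turned sign were Icos in CD4 (-0.065 with upper-quartile scaling, -0.060 with quantile normalisation and -0.54 with TRaGS replicates 1 and 2 alone), Pdcd1 in CD4 (-1.16) and Ctla4 in Treg (-0.44) in those 2 replicates alone, Btla (0.075) and Cd226 (0.042) in Treg with array weights, and Cd5 in Treg (0.0091 with upper-quartile scaling, 0.024 with quantile normalisation and 0.031 in those 2 replicates alone). With 1 library left out, the ranges of results that turned sign were -0.28 to 0.64 for Icos, -0.66 to 0.99 for Pdcd1 and -0.34 to 0.029 for Btla in CD4; -0.23 to 0.26 for Ctla4, -0.87 to 0.24 for Pdcd1, -0.22 to 0.13 for Btla, -0.30 to 0.12 for Cd226 and -0.059 to 0.057 for Cd5 in Treg; -0.18 to 0.35 for the difference between subsets in Btla; and -0.018 to 0.40 (CD4) and -0.055 to 0.40 (Treg) for the Ctla4 to Cd28 ratio.

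Replicate numbers do not pair mice across genotypes: deviations of same-numbered libraries correlated at -0.02 to 0.05. With the replicate block there were 4 calls in CD4, 112 in Treg, 2 among the receptor genes in Treg (Icos, adjusted p = 0.00165) and 0 for the difference between subsets. Depth limits Tigit, Lag3 and, in CD4, Pdcd1 and Ctla4, whose reads per library were few.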

Other observations

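Protein-coding neighbours of the other receptor genes gave no call in either subset. Cd4, 16140 bp from Lag3, had 736 ± 17.4 and 911 ± 90.0 normalised counts in TRaWT and TRaGS Treg (SD, n = 4, limma adjusted p = 0.528) and 907 ± 69.0 and 1097 ± 41.2 in CD4 (adjusted p = 0.947). Normalised counts did not overlap in either subset, as for 5.07% of all genes tested in Treg and 3.16% in CD4. In RPM the CD4 groups did overlap, at 390 to 483 in TRaWT and 398 to 526 in TRaGS. Ptms, 1976 bp on the other side of Lag3, had 211 ± 56.7 and 239 ± 36.9 in Treg (adjusted p = 0.866). Cd200, after Btla, had 78.6 ± 15.1 and 85.4 ± 49.4 in Treg (adjusted p = 0.996), and M6pr, after Klrg1, had 202 ± 46.6 and 263 ± 105 (adjusted p = 0.757).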
